A study of Mus musculus with 12 samples.

Results

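The genes described here were 45 genes of DNA replication and S phase, listed by symbol: factors that license origins, the replicative helicase and its activators, the sliding clamp and its loader, the replicative polymerases, enzymes that join new strands and supply thymidylate, chromatin assembly factors, and transcription factors of the E2F programme. They were chosen by name and not by a threshold on a measured value, but with earlier results of these data known. All 45 were present in both count tables, which held 17335 gene identifiers between them, and all 45 passed the filter on low counts in both lines.

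RNA was sequenced from cultures of 2 mouse lines that received each other's supernatants. Pancreatic stellate cells, which lie in the stroma and can turn fibroblastic, were represented by the line PSC4, and pancreatic adenocarcinoma by the line KPC4. Donor KPC4 cells received vehicle or 10 µM gemcitabine, a nucleoside analogue used in chemotherapy, for 6 h, were washed, and conditioned starvation medium for 14 h, which gave Control-SU and Gem-SU. PSC4 recipients stayed in either supernatant for 24 h. For the second step, PSC4 cells spent 6 h in one of these supernatants, were washed, and conditioned fresh starvation medium for 18 h, and fresh KPC4 recipients stayed in this Control-PSC-SU or Gem-PSC-SU for 24 h. Recipients met gemcitabine only through what donor cells and medium carried over, the amount of which is not given in the sources used here. Each of the 4 groups had 3 libraries named as biological replicates, all of 1 line per cell type, so the p-values speak for these cultures of these lines.

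DNA replication starts at origins bound by the origin recognition complex, to which Cdc6 and Cdt1 bring the ring-shaped Mcm2-7 helicase in G1. At S phase entry the helicase is switched on by Cdc45 and the GINS complex, and polymerases, clamp and ligase then copy both strands. Most of these genes are transcribed in late G1 and S phase under E2F transcription factors and are low in resting cells, so their RNA is widely used as a readout of how much of a culture is in or near S phase.

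Library totals lay between 29559414 and 38138356 counts in PSC4 and between 26354328 and 34744150 in KPC4, and the members had between 100 and 21042 counts per library. The lines matched their labels in the summed markers, though not in every marker. Summed stellate and fibroblast markers were 8142 to 8708 CPM (counts scaled to the library total) in PSC4 with Control-SU. Summed epithelial markers were 16.1 to 17.0 CPM there against 6017 to 7458 CPM in KPC4 with Control-PSC-SU. Krt8, Krt18, Krt19 and Cdh1 made up most of that KPC4 sum. Epcam (mean 8.89 CPM), Cldn4 (1.27), Grhl2 (1.37) and Ovol1 (0.038) were low in these KPC4 controls, and Esrp1 was absent. Leukocyte markers summed to at most 5.72 CPM and endothelial markers to at most 4.85 CPM in any library. The stellate markers moved with the groups, to 2458 to 3671 CPM with Gem-SU in PSC4 and from 2417 to 2806 down to 1848 to 2208 CPM in KPC4, where Pdgfrb, Dcn, Lum, Des, Postn and Thy1, 6 of the 12 markers on the list, were absent from the table or at 3 counts or fewer. The KPC4 sum was nearly all Vim (mean 2588 CPM with Control-PSC-SU and 2053 CPM with Gem-PSC-SU). Vim was lower in PSC4 with Control-SU, at 1671 CPM, where Des (2.84 CPM) and Postn (4.26 CPM) were also low and Lum was absent. The list did not move as one: in PSC4 the means of 9 of the 11 markers in the table were lower with Gem-SU and those of Acta2 (15.7 and 26.9 CPM) and Des (2.84 and 3.36 CPM) higher, and in KPC4 3 of 6 were lower and 3 higher, the latter (Col1a2, Pdgfra and Acta2) below 1 CPM. The part of these markers in the results below was not tested. In bulk RNA, fewer cells in a phase and less RNA per cell cannot be told apart.

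In PSC4, replication genes were mostly higher with Gem-SU. By the edgeR quasi-likelihood test, with p adjusted by Benjamini and Hochberg's method over all genes and a threshold of 0.05, 30 of the 45 members rose and 1 fell, against a background of 46.3% of 13347 genes called, 24.3% higher and 22.0% lower. The median log2 change over the members was 0.78, a fold of 1.71, against -0.0032 over all genes tested. Of the 31 members called, 17 rose at least 2-fold and 6 at least 4-fold: Orc1, Zfp367, E2f2, Cdc6, Clspn and Mcm10. The 3 Gem-SU libraries lay above the 3 Control-SU libraries for 32 members (29.3% of all genes) and below for 1, Pold1 (27.1% of all genes).

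In KPC4, all 45 members had a higher mean with Gem-PSC-SU, with a median log2 change of 1.13, a fold of 2.19, against -0.02 over all genes. None passed the adjusted threshold when the libraries were compared as 2 unmatched groups, where 0% of 13236 genes did; the smallest adjusted p of a member was 0.112. At an unadjusted p under 0.05, 38 members were higher and 0 lower, against 17.0% of genes called, 10.9% higher and 6.07% lower, and DESeq2 called 23 members, all higher (6.22% of genes). Libraries with the same replicate number varied together in this line, and with the number as a block 39 of 45 members rose and none fell, against 8.85% of 13236 genes called, 6.07% higher and 2.78% lower. The 6 that missed were Rfc1, Gins1, Pold1, Pole2, E2f1 and Gins3, with adjusted p between 0.0567 and 0.108.

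The KPC4 members shared a pattern across libraries. Control-PSC-SU replicate 2 had the highest control value for 45 of 45 members, Control-PSC-SU replicate 1 the lowest value of all 6 libraries for 42, and Gem-PSC-SU replicate 2 the highest of all for 42. The median member stood at 0.698, 1.65 and 0.844 times its control mean in Control-PSC-SU replicates 1, 2 and 3, and at 1.56, 3.20 and 2.23 times in Gem-PSC-SU replicates 1, 2 and 3. For these ratios 1 was added to each CPM, and the control mean was taken on the log2 scale. Within each replicate number all 45 members were higher with Gem-PSC-SU. The median fold, also with 1 added to each CPM, was 2.14 in pair 1, 1.92 in pair 2 and 2.72 in pair 3. The shares of all genes with these pair orders, or with these highest and lowest libraries, were not counted. The 48 other replication genes and 18 mitosis genes described below had the same order of library medians within each group. For the mitosis genes these were 0.654, 1.83 and 0.804 with Control-PSC-SU and 2.46, 4.32 and 2.79 with Gem-PSC-SU. Groups did not overlap for 23 members, all with Gem-PSC-SU above (11.8% of all genes). Without Control-PSC-SU replicate 2 the unblocked test called 19 members (1.29% of all genes) with a median log2 change of 1.62, without Gem-PSC-SU replicate 1 it called 18 (8.30% of all genes) with a median of 1.35, and without any one of the other 4 it called 0 (at most 0.00746% of all genes). In PSC4 the spread was smaller, with a median coefficient of variation among controls of 10.2% against 48.1% in KPC4.

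**Figure D1:**
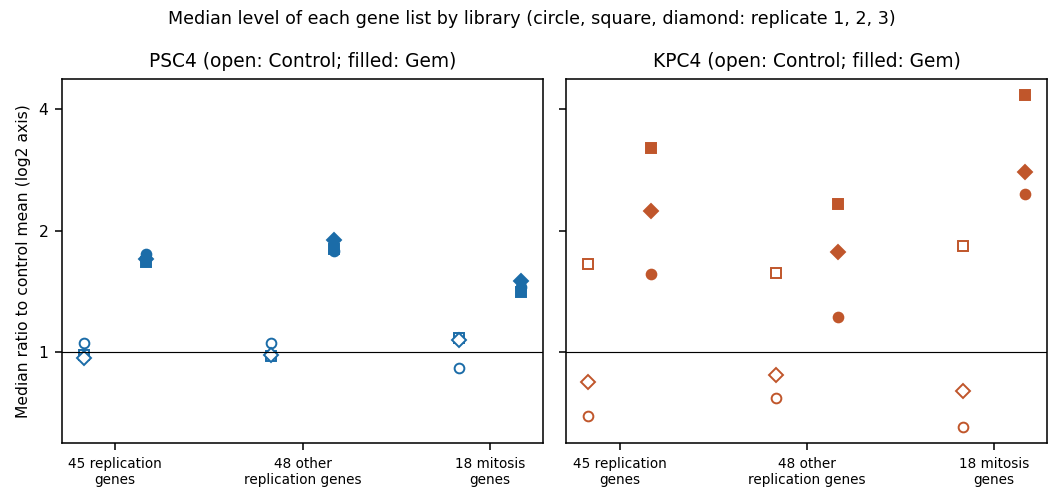
Median over each gene list of the ratio of a library's CPM to the control mean (vertical, log2 axis), for the 45 replication genes, 48 other replication genes and 18 mitosis genes, in PSC4 (left) and KPC4 (right). For the ratio 1 was added to each CPM, and the control mean was taken on the log2 scale. Open symbols are control libraries, filled symbols Gem libraries, and the shape marks the replicate number. The PSC4 medians of the 45 genes lie between 1.68 and 1.75 with Gem-SU, while in KPC4 the square of Control-PSC-SU (1.65) lies above the circle of Gem-PSC-SU (1.56).

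**Figure D2:**
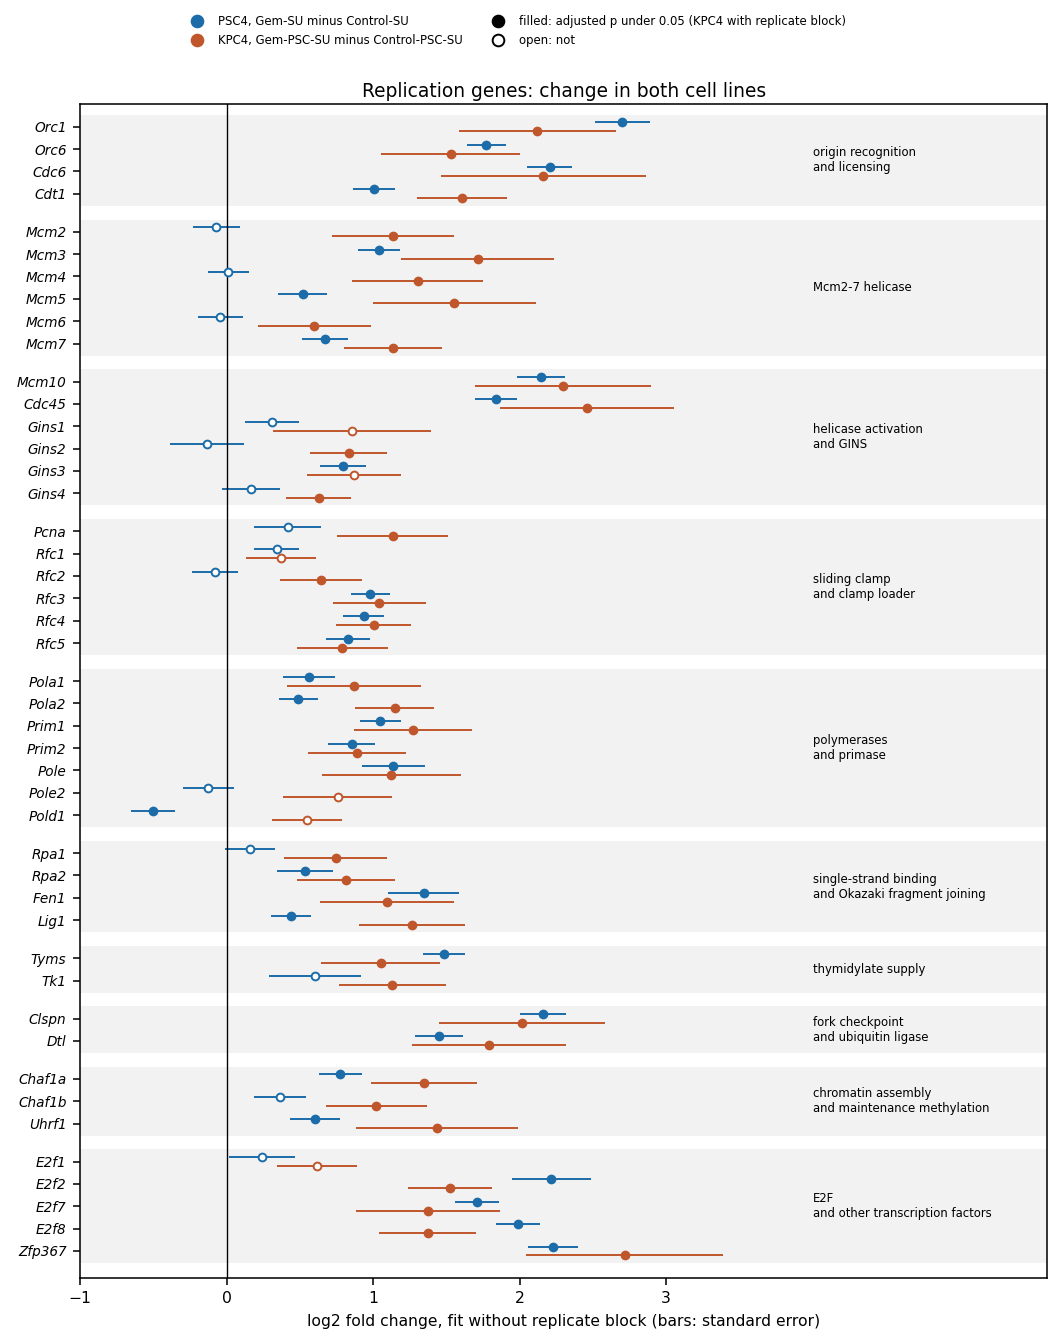
Log2 fold change with its standard error for each of the 45 replication genes, grouped by role, in PSC4 (blue, Gem-SU minus Control-SU) and KPC4 (orange, Gem-PSC-SU minus Control-PSC-SU). Points and bars of both lines come from fits without the replicate block, so in KPC4 the bars and the filling rest on different fits. Filled points have an adjusted p under 0.05, in KPC4 with the replicate block; all 45 orange points lie to the right of 0, while 6 blue points lie to its left.

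Promoter sequence was examined for the list as a whole. Most of these genes are known to be transcribed under E2F factors, so their share of E2F matches could be high whatever their RNA did. RefSeq promoter windows (GRCm38.p6, an earlier build than the GRCm39 named for the counts), running from 250 bases before to 50 after a transcription start, were found for 38 of the 45 members, in 45 windows. The search used an E2F motif in 4 spellings (TTTCCCGC, TTTCGCGC, TTTGCCGC and TTTGGCGC), the CCAAT box and the TTTGAA element found in many late cell cycle genes, each on both strands and with overlapping matches counted. The E2F motif was in 20 of 45 member windows, 44.4%, against 2.26% of all 32851 windows, and 6 member windows (13.3%) held at least 2 matches against 0.0974% of all windows. The CCAAT box was in 62.2% of member windows against 37.4% of all windows, and TTTGAA in 13.3% against 17.9%. By gene, 16 of the 28 members with a window that rose in PSC4 held an E2F match and 3 of the 10 that did not rise, a split that ran the other way in KPC4 with the block, at 16 of 33 that rose and 3 of 5 that did not. A match describes letters and not binding, and no match says only that these spellings are not in this window.

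The bases before the start are shown for 5 members, with E2F and CCAAT matches in capitals: Orc1, Cdc6 and Zfp367 were among the largest rises in both lines, and Mcm6 and Mcm2 are helicase subunits whose RNA did not pass the test in PSC4. Orc1 lies at chr4:108579204-108579453 on the plus strand, Cdc6 at chr11:98907901-98908150 on the plus strand, Zfp367 (the most upstream of its 2 windows) at chr13:64153200-64153449 on the minus strand, Mcm6 at chr1:128359706-128359955 on the minus strand and Mcm2 at chr6:88898781-88899030 on the minus strand, all GRCm38.p6 and written 5′ to 3′ on the gene's strand.
Orc1: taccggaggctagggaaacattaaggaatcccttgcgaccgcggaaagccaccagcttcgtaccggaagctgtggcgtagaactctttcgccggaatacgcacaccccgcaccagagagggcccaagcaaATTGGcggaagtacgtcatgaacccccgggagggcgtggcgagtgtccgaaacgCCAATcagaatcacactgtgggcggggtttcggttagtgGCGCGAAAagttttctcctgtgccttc
Cdc6: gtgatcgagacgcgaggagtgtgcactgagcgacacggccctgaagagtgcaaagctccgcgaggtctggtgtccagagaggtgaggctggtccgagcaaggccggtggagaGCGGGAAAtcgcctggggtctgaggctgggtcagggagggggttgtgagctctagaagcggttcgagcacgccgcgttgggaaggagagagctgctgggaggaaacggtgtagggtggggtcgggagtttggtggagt
Zfp367: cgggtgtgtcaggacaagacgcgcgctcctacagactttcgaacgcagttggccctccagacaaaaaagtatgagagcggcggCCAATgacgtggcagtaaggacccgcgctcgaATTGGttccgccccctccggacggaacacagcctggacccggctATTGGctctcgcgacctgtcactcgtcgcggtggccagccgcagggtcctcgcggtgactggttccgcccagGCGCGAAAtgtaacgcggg
Mcm6: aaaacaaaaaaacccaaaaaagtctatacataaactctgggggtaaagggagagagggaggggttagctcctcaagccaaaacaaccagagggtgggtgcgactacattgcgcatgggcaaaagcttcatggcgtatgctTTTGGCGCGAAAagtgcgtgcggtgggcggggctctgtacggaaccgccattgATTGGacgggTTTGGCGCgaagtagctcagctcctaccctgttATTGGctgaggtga
Mcm2: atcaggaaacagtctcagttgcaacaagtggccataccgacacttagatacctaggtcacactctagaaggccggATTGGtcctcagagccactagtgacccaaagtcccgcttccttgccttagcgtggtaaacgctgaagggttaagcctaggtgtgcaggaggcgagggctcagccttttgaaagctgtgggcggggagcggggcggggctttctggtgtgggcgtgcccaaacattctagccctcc
Within the bases shown, the E2F match of Orc1 began 27 bases before the start, that of Zfp367 19 and that of Cdc6 138. The search of whole windows, which took in the 50 bases after the start, found up to 2 matches in a window of Zfp367. Mcm6 held 3 matches, beginning 110, 106 and 47 bases before the start, of which the first 2 overlap, and Mcm2 held none. These 2 promoters, of genes with no called change in PSC4, thus differed in this motif. Mcm4, also without a called change there, had no window.

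The 4 members of origin recognition and licensing rose in PSC4, with log2 changes between 1.01 and 2.70. Orc1, the largest subunit of the origin recognition complex and one whose level is tied to the cell cycle, was at 10.7, 9.28 and 11.4 CPM in Control-SU replicates 1 to 3 and at 54.9, 72.8 and 76.1 CPM with Gem-SU. The groups lay far apart, a rise of 2.70 on the log2 scale (SE 0.19) or 6.50-fold (edgeR, adjusted p = 4.57e-05), which was the largest of the 45. Cdc6, the ATPase that loads the helicase, went from 46.6, 44.5 and 40.3 CPM to 179, 199 and 228 CPM, a 4.61-fold rise (log2 2.20, SE 0.15; edgeR, adjusted p = 4.74e-05). Cdt1, the partner that carries Mcm2-7 to the origin, rose 2.01-fold, from 129, 106 and 123 CPM to 252, 224 and 244 CPM (log2 1.01, SE 0.14; edgeR, adjusted p = 0.000859). Orc6, the smallest subunit, rose 3.41-fold.

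The same 4 genes were higher in KPC4, with more spread. Orc1 read 4.18, 11.1 and 4.52 CPM with Control-PSC-SU and 12.7, 47.6 and 26.1 CPM with Gem-PSC-SU, so the lowest treated library lay just above the highest control. The log2 change was 2.12 (SE 0.54; edgeR, adjusted p = 0.135), and 2.08 (SE 0.22; adjusted p = 0.00234) with the block. Cdc6 read 3.92, 28.5 and 7.53 CPM against 28.2, 90.1 and 60.6 CPM, with replicate 2 of the controls level with replicate 1 of the treated cultures, and its log2 change was 2.16 (SE 0.70; edgeR, adjusted p = 0.195) without and 2.49 (SE 0.28; adjusted p = 0.00379) with the block. Cdt1 had separate groups, at 26.4, 45.7 and 31.3 CPM against 69.3, 143 and 102 CPM. Its 3.04-fold change (log2 1.61, SE 0.31) shared the smallest adjusted p of the members with E2f2 (edgeR, 0.112), and passed with the block (adjusted p = 0.00109). Orc6 was 2.88-fold higher, with overlapping groups and an adjusted p of 0.00274 in the blocked edgeR fit.

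The 6 subunits of the Mcm2-7 ring, which are stoichiometric in the protein complex, split in PSC4: Mcm3, Mcm5 and Mcm7 rose, and Mcm2, Mcm4 and Mcm6 did not pass the test. Mcm3 went from 254, 242 and 227 CPM to 499, 475 and 509 CPM, a 2.05-fold rise (log2 1.04, SE 0.14; edgeR, adjusted p = 0.00073). Mcm7 went from 309, 301 and 289 CPM to 547, 462 and 422 CPM (log2 0.67, SE 0.16; edgeR, adjusted p = 0.00891), and Mcm5 rose 1.43-fold (edgeR, adjusted p = 0.0311). The groups of all 3 were separate. The call of Mcm5 was lost without Control-SU replicate 2 or 3 or Gem-SU replicate 2 or 3 (adjusted p 0.0645 to 0.0978).

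For Mcm2, Mcm4 and Mcm6 the PSC4 groups overlapped. Mcm2 was at 379, 297 and 319 CPM with Control-SU and 347, 301 and 300.3 CPM with Gem-SU (log2 -0.07, SE 0.16; edgeR, adjusted p = 0.744). Mcm4 was at 291, 292 and 258 CPM and at 291, 263 and 295 CPM (log2 0.01, SE 0.14; edgeR, adjusted p = 0.949), and Mcm6 at 498, 557 and 461 CPM and at 493, 474 and 504 CPM (log2 -0.04, SE 0.15; edgeR, adjusted p = 0.837). Their standard errors were as small as those of the 3 subunits that rose. The direction of these 3 small changes turned when single libraries were left out.

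In KPC4 all 6 subunits rose in the blocked fit, by log2 changes of 0.69 to 1.81. Mcm2 read 58.6, 134 and 67.4 CPM with Control-PSC-SU and 99.5, 279.9 and 192 CPM with Gem-PSC-SU, and Mcm4 read 92.5, 244 and 137 CPM against 213, 629.7 and 327 CPM. In both genes the groups overlapped while each replicate number showed a rise, and with the block the log2 change was 1.11 (SE 0.17; edgeR, adjusted p = 0.00969) for Mcm2 and 1.27 (SE 0.12; edgeR, adjusted p = 0.0014) for Mcm4. Without the block their adjusted p was 0.229 and 0.211. Mcm3 read 37.2, 136 and 51.4 CPM against 136, 384 and 217 CPM, the largest change of the ring at 3.28-fold without the block, and rose by 1.81 on the log2 scale with it (SE 0.15; edgeR, adjusted p = 0.000894).

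Mcm6 had the smallest change of the ring in KPC4, at 57.4, 152 and 65.6 CPM against 108, 191 and 117 CPM (log2 0.60, SE 0.39; edgeR, adjusted p = 0.448; with the block 0.69, SE 0.16, adjusted p = 0.0364). Mcm7 was the one subunit with separate groups, at 102, 218 and 122 CPM against 218, 429.6 and 324 CPM, although the highest control and the lowest treated library both round to 218. It changed 2.20-fold, with an adjusted p of 0.167 in edgeR and of 0.00331 with the block.

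Mcm10 and Cdc45, which help the loaded helicase to start, were among the strongest rises, while the 4 GINS subunits changed less. In PSC4 Mcm10 went from 34.6, 36.0 and 37.6 CPM to 136, 151 and 192 CPM, a 4.43-fold rise (log2 2.15, SE 0.16; edgeR, adjusted p = 6.31e-05). Cdc45 went from 52.1, 41.3 and 45.1 CPM to 168, 156 and 171 CPM, a 3.57-fold rise (log2 1.84, SE 0.14; edgeR, adjusted p = 6.55e-05). Of the GINS genes Gins3 rose 1.73-fold. Gins2 had overlapping groups, 124, 83.6 and 89.1 CPM against 124, 80.0 and 65.5 CPM (log2 -0.13, SE 0.25; edgeR, adjusted p = 0.69), and Gins1 and Gins4 missed the threshold with log2 changes of 0.31 and 0.17.

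In KPC4 Cdc45 read 6.40, 22.8 and 8.94 CPM with Control-PSC-SU and 28.7, 117 and 63.8 CPM with Gem-PSC-SU, groups that did not overlap. It was 5.50-fold higher (log2 2.46, SE 0.59; edgeR, adjusted p = 0.124), and the block narrowed the standard error to 0.18 at nearly the same change of 2.46 (adjusted p = 0.000755). Mcm10 read 10.5, 46.7 and 14.5 CPM against 61.5, 188 and 103 CPM, also separate groups (log2 2.29, SE 0.60; edgeR, adjusted p = 0.145; with the block 2.46, SE 0.19, adjusted p = 0.000761). Gins2, at 19.5, 32.0 and 26.4 CPM against 33.7, 56.9 and 48.0 CPM, changed 1.78-fold, with an adjusted p of 0.185 without and 0.0163 with the block. Gins4 passed with the block (adjusted p = 0.0408), and Gins1 and Gins3, with log2 changes of 0.99 and 0.94 there, did not (adjusted p = 0.0772 and 0.0567).

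**Figure D3:**
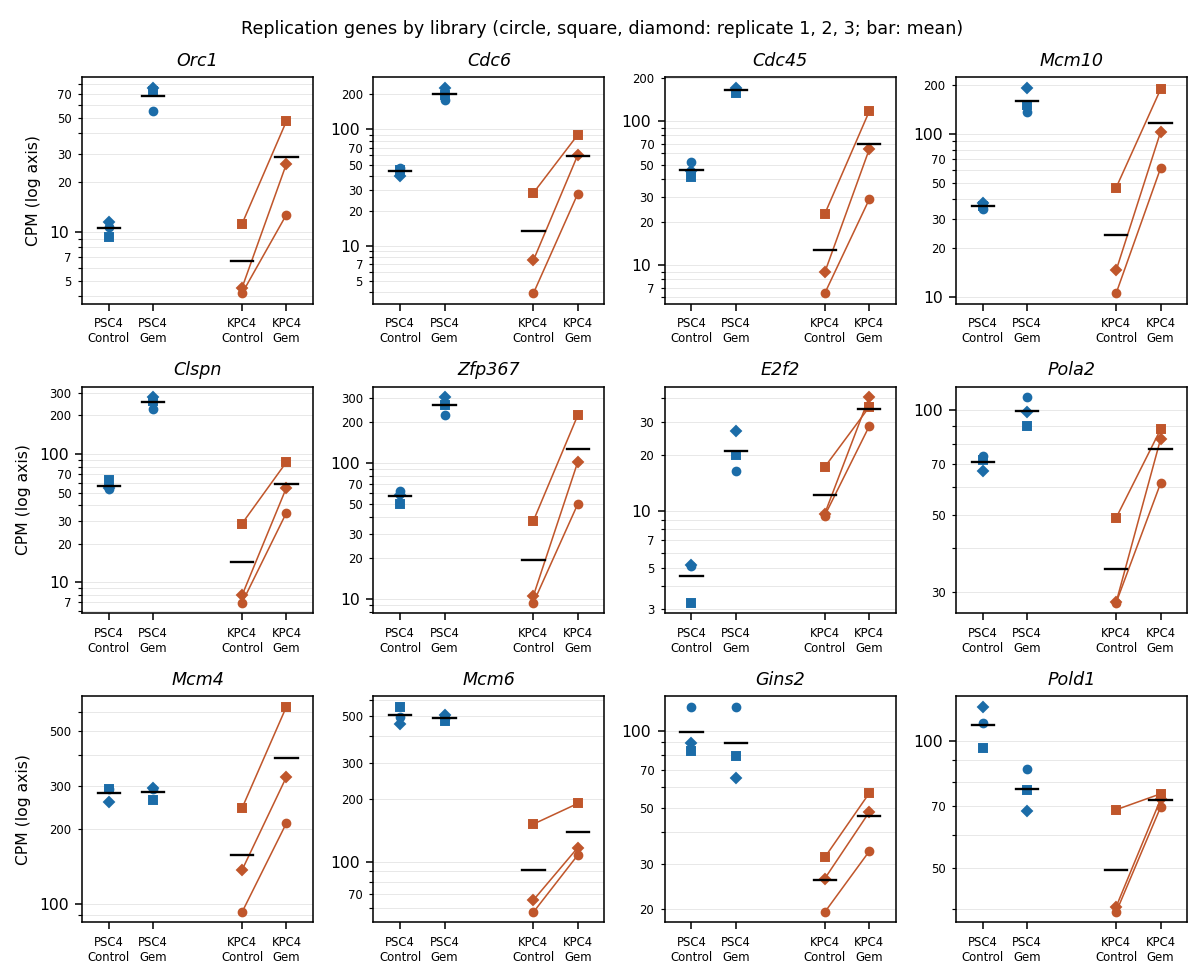
CPM in each library (log axis) for 12 replication genes in the 4 groups; circles, squares and diamonds are replicates 1, 2 and 3, bars are group means, and lines join same-numbered KPC4 libraries. Orc1, Cdc6, Cdc45, Mcm10, Clspn and Zfp367 stand apart by group in PSC4, Mcm4, Mcm6 and Gins2 do not, and Pold1 is lower with Gem-SU in PSC4 while every KPC4 line rises.

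Pcna is the ring that holds polymerases on DNA, and replication factor C, the complex of Rfc1 to Rfc5, opens and loads it. The loader subunits Rfc3, Rfc4 and Rfc5 rose in PSC4, and Rfc1, Rfc2 and Pcna did not pass. Rfc3 went from 61.8, 55.9 and 53.5 CPM to 122, 109 and 106 CPM, a 1.97-fold rise (log2 0.98, SE 0.13; edgeR, adjusted p = 0.000705). Rfc4 went from 34.4, 36.6 and 31.2 CPM to 62.1, 64.7 and 68.8 CPM, a 1.91-fold rise (edgeR, adjusted p = 0.000998). Both genes had tight, separate groups. Rfc2 overlapped, at 86.8, 82.2 and 73.7 CPM against 90.4, 67.8 and 71.8 CPM (log2 -0.08, SE 0.16; edgeR, adjusted p = 0.707). Pcna had a log2 change of 0.42 (SE 0.23; edgeR, adjusted p = 0.17), and Rfc1 had separate groups but a change of 0.34 that did not pass (SE 0.15; edgeR, adjusted p = 0.0967), though it did without Gem-SU replicate 1 (adjusted p = 0.0415) and in DESeq2 with the replicate block (adjusted p = 0.0447).

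In KPC4 Pcna and Rfc2 to Rfc5 rose with the block, and Rfc1 did not (log2 0.40, SE 0.14; edgeR, adjusted p = 0.108). Rfc4 read 18.8, 31.1 and 19.3 CPM with Control-PSC-SU and 36.6, 52.3 and 49.9 CPM with Gem-PSC-SU. These groups were separate, 2.00-fold apart on average, with an adjusted p of 0.142 in edgeR without the block and 0.0151 with it. Rfc3 read 13.7, 19.9 and 15.9 CPM against 20.0, 47.3 and 34.4 CPM, groups that meet at 19.9 and 20.0 CPM (adjusted p = 0.175 in edgeR, 0.0245 with the block). Rfc2 read 29.7, 53.6 and 36.8 CPM against 43.6, 74.9 and 69.1 CPM, an overlapping 1.56-fold difference (adjusted p = 0.293 in edgeR, 0.0388 with the block). Pcna was 2.19-fold higher without the block (adjusted p = 0.205) and passed with it (adjusted p = 0.0112).

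Polymerase alpha and primase lay down the first primers, polymerase epsilon copies mainly the leading strand and polymerase delta mainly the lagging strand. In PSC4 Pola1, Pola2, Prim1, Prim2 and Pole rose, by 1.40-fold to 2.20-fold, Pole2 did not pass, and Pold1, the catalytic subunit of polymerase delta, fell. Prim1, the primase that makes the RNA primer, went from 113, 118 and 97.6 CPM to 219, 225 and 237 CPM, a 2.07-fold rise (log2 1.05, SE 0.14; edgeR, adjusted p = 0.000647). Pold1 went from 110.0, 96.3 and 121 CPM to 85.7, 76.6 and 68.3 CPM. All 3 treated libraries lay below all 3 controls, a fall of 0.50 on the log2 scale (SE 0.15; edgeR, adjusted p = 0.0237), and this was the only member that fell. Without Control-SU replicate 1 or 3 or Gem-SU replicate 2 or 3 the fall of Pold1 missed the threshold (adjusted p 0.0583 to 0.0906). Pola2 rose 1.40-fold, from 73.6, 71.7 and 67.0 CPM to 109, 90.1 and 99.0 CPM (edgeR, adjusted p = 0.0169), a call lost without Control-SU replicate 3 (adjusted p = 0.0895). Pola1, the catalytic subunit, rose 1.48-fold and lost its call without Control-SU replicate 1 or 3 or Gem-SU replicate 2 or 3 (adjusted p 0.0918 to 0.113). Pole2, an accessory subunit of polymerase epsilon, read 18.5, 18.9 and 15.9 CPM and then 17.9, 14.8 and 16.1 CPM, which overlap (log2 -0.13, SE 0.17; edgeR, adjusted p = 0.579), whereas its catalytic partner Pole rose 2.20-fold.

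In KPC4 Pola1, Pola2, Prim1, Prim2 and Pole rose with the block. Pola2 read 27.9, 48.9 and 27.9 CPM with Control-PSC-SU and 61.5, 88.0 and 82.5 CPM with Gem-PSC-SU, separate groups and a 2.22-fold change (log2 1.15, SE 0.27; edgeR, adjusted p = 0.124; with the block adjusted p = 0.00849). Prim1 read 15.5, 43.9 and 18.4 CPM against 45.1, 79.9 and 63.2 CPM, again separate (edgeR, adjusted p = 0.184; with the block 0.00804). Pold1 read 39.4, 68.7 and 40.5 CPM against 69.7, 75.0 and 72.7 CPM, higher in every treated library but by little over the highest control. Its log2 change of 0.55 (SE 0.24) missed the threshold both without (edgeR, adjusted p = 0.292) and with the block (0.0747). Pole2, at 2.88, 7.08 and 5.53 CPM against 6.77, 11.6 and 7.80 CPM, missed it too (edgeR, adjusted p = 0.339 and, with the block, 0.0691).

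Replication protein A coats single-stranded DNA, and Fen1 and Lig1 trim and join the Okazaki fragments of the lagging strand. Fen1 rose most of these in PSC4, from 60.7, 30.7 and 42.8 CPM to 129.6, 106 and 105 CPM, a 2.54-fold rise (log2 1.34, SE 0.24; edgeR, adjusted p = 0.00243) whose controls were more spread than those of most members. Lig1 rose 1.35-fold, from 208, 196 and 214 CPM to 296, 270.1 and 269.6 CPM (log2 0.44, SE 0.14; edgeR, adjusted p = 0.029). Rpa2 rose 1.45-fold (edgeR, adjusted p = 0.0463), and Rpa1, the large subunit, had a log2 change of 0.16 that did not pass (SE 0.17; edgeR, adjusted p = 0.471). The calls of Lig1 and Rpa2 were the least stable to leaving out a library: Lig1 kept its call only without Gem-SU replicate 1 and Rpa2 only without Control-SU replicate 1, with adjusted p of 0.063 to 0.0968 and of 0.0649 to 0.175 in the other 5 fits. In KPC4 all 4 rose with the block. Lig1 read 44.8, 112 and 58.2 CPM against 118, 223 and 177 CPM, with the groups just separate (2.41-fold; edgeR, adjusted p = 0.162, and 0.00347 with the block). Fen1 read 15.4, 44.0 and 23.0 CPM against 31.0, 90.4 and 54.9 CPM, overlapping groups with a rise in each replicate number (2.14-fold; edgeR, adjusted p = 0.273, and 0.00555 with the block).

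Thymidylate is made anew by Tyms, which converts deoxyuridylate, and salvaged by Tk1, which phosphorylates thymidine. In PSC4 Tyms rose 2.80-fold, from 81.6, 69.9 and 74.3 CPM to 229, 196 and 207 CPM (log2 1.48, SE 0.14; edgeR, adjusted p = 0.000143). Tk1 was more variable, at 97.8, 41.4 and 82.6 CPM against 144, 109 and 84.7 CPM, and did not pass (log2 0.60, SE 0.31; edgeR, adjusted p = 0.145). In KPC4 both rose with the block. Tk1 read 16.3, 45.6 and 21.0 CPM against 50.1, 65.8 and 65.6 CPM, which were separate (2.19-fold; edgeR, adjusted p = 0.192, and 0.0242 with the block), and Tyms read 14.0, 30.9 and 20.0 CPM against 24.1, 68.6 and 41.7 CPM, which were not (2.07-fold; edgeR, adjusted p = 0.246, and 0.0112 with the block).

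Clspn encodes claspin, a fork protein through which the checkpoint kinase Chk1 is activated, and Dtl is the substrate receptor of a ubiquitin ligase that removes Cdt1 in S phase. Both rose in PSC4. Clspn went from 53.2, 62.5 and 54.1 CPM to 223, 258 and 278 CPM, a 4.47-fold rise (log2 2.16, SE 0.15; edgeR, adjusted p = 5.39e-05), and Dtl rose 2.73-fold (edgeR, adjusted p = 0.00032). In KPC4 Clspn read 6.95, 28.8 and 7.94 CPM against 35.0, 86.8 and 54.9 CPM. The groups were separate, 4.05-fold apart (log2 2.02, SE 0.57; edgeR, adjusted p = 0.161), and the gene rose with the block (2.23, SE 0.24; adjusted p = 0.00234), as did Dtl at 3.45-fold without and adjusted p = 0.00201 with it.

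Chaf1a and Chaf1b belong to the chromatin assembly factor that places histones on new DNA, and Uhrf1 brings the maintenance methyltransferase to it. Chaf1a rose in PSC4 from 115, 89.0 and 105 CPM to 174, 188 and 167 CPM (1.71-fold; edgeR, adjusted p = 0.00321). Uhrf1 rose 1.52-fold (edgeR, adjusted p = 0.0196; 0.0632 without Control-SU replicate 2 and 0.067 without replicate 3), and Chaf1b did not pass, with separate groups and a log2 change of 0.36 (SE 0.18; edgeR, adjusted p = 0.127). All 3 rose in KPC4 with the block. Chaf1a read 31.1, 78.3 and 38.6 CPM there against 86.5, 149.5 and 141 CPM, separate groups and a 2.55-fold change (edgeR, adjusted p = 0.151, and 0.00627 with the block). Uhrf1 had the highest spread between controls relative to its mean among these 3, at 67.4 ± 59.4 CPM (SD, n = 3) against 183 ± 55.8 CPM (SD, n = 3).

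The transcription factors were E2f1 and E2f2, activators of the G1 to S transition, E2f7 and E2f8, atypical E2Fs that repress the same targets, and Zfp367, a zinc finger factor. Activator E2f2 and both repressors rose in PSC4, and E2f1 did not pass. E2f2 went from 5.1, 3.25 and 5.2 CPM to 16.5, 19.9 and 26.7 CPM, a 4.65-fold rise (log2 2.22, SE 0.27; edgeR, adjusted p = 0.000445). E2f8 went from 26.7, 24.6 and 21.7 CPM to 92.2, 90.6 and 107 CPM, a 3.97-fold rise (log2 1.99, SE 0.15; edgeR, adjusted p = 6.17e-05), and E2f7 rose 3.27-fold. Zfp367 went from 62.4, 50.1 and 58.6 CPM to 227, 268 and 307 CPM, a 4.68-fold rise (log2 2.23, SE 0.17; edgeR, adjusted p = 6.4e-05). E2f1 had a log2 change of 0.24 (SE 0.22; edgeR, adjusted p = 0.404).

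Zfp367 had the largest change of any member in KPC4, from 9.37, 37.6 and 10.5 CPM with Control-PSC-SU to 50.1, 226 and 102 CPM with Gem-PSC-SU. The groups were separate, and the 6.58-fold difference (log2 2.72, SE 0.67; edgeR, adjusted p = 0.13) passed with the block (2.76, SE 0.20; adjusted p = 0.000755). E2f2 read 9.48, 17.2 and 9.71 CPM against 28.4, 35.9 and 40.6 CPM, with a clear gap between groups (2.88-fold; edgeR, adjusted p = 0.112, and 0.00746 with the block). E2f8 read 14.6, 28.3 and 15.7 CPM against 39.9, 70.2 and 41.5 CPM, also separate (2.59-fold; edgeR, adjusted p = 0.124, and 0.00215 with the block). E2f7 rose with the block (adjusted p = 0.00684) and E2f1 did not (1.53-fold without it; adjusted p = 0.0635 with it).

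Set side by side, 29 members (64.4%) were called in both lines (PSC4 unblocked, KPC4 with the block), against 6.66% of the 12207 genes tested in both. Another 2 were called in PSC4 alone (Gins3 and Pold1; 4.44% against 39.8% of genes), 10 in KPC4 alone (22.2% against 2.53%) and 4 in neither (8.89% against 51.0%). Those 10 were Mcm2, Mcm4, Mcm6, Gins2, Gins4, Pcna, Rfc2, Rpa1, Tk1 and Chaf1b. A log2 change above 0 held in both lines for 39 members (86.7% against 33.5% of genes), and 6 (13.3% against 13.9%) were lower in PSC4 and higher in KPC4: Mcm2, Mcm6, Gins2, Rfc2, Pole2 and Pold1. These counts do not test a difference between the 2 responses. The interaction does, but in it line, medium and step of the transfer cannot be told apart.

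In one fit of all 12 libraries, the change in PSC4 minus the change in KPC4 differed from 0 for 1 member, Pold1 (log2 -1.10, SE 0.30; edgeR, adjusted p = 0.0346), against 9.85% of 13632 genes called and 5.10% lower. On the scaling of that fit Pold1 fell in PSC4 from 110.2 ± 13.0 to 75.2 ± 8.42 CPM (SD, n = 3), and was higher in KPC4 with 73.8 ± 1.48 against 50.5 ± 17.4 CPM (SD, n = 3). The other members named for the smallest p were Gins2 (-1.01, SE 0.39) and Mcm4 (-1.33, SE 0.51) on the lower side, with adjusted p of 0.117 and 0.117 in edgeR, and E2f2 (0.64), E2f8 (0.57) and Orc1 (0.55) on the higher side, with adjusted p of 0.351, 0.362 and 0.607. Once the replicate number entered as a block within each line, 15 members differed, all with the smaller change in PSC4, against 21.9% of genes called, 1631 of 13632 on the lower side. They were Cdt1, Mcm2 to Mcm6, Cdc45, Gins2, Pcna, Rfc2, Pola2, Pole2, Pold1, Lig1 and Uhrf1, so 5 of the 6 Mcm2-7 subunits were among them. The numbers were taken to pair the libraries of KPC4 only. Without KPC4 Control-PSC-SU replicate 2 the unblocked fit called 10 members (7.59% of all genes), and without any one of 7 other libraries it called 0 (4.41% to 6.91% of all genes). Without KPC4 Gem-PSC-SU replicate 1 it called 3 (9.75% of all genes), and without PSC4 Gem-SU replicate 1 it called 2 (12.5% of all genes).

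**Figure D4:**
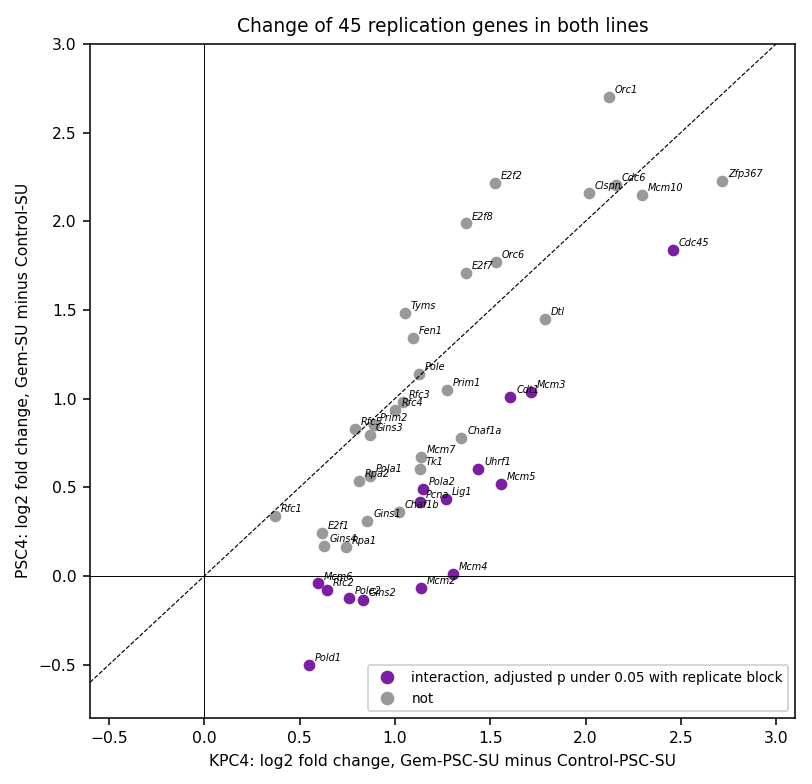
Log2 fold change of each of the 45 replication genes in KPC4 (horizontal) and PSC4 (vertical), from fits without the block; the dashed line marks equal change. Purple points are the 15 members whose change differed between PSC4 and KPC4 with the replicate block, where line, medium and step differ together. All lie below the dashed line, and Pold1 is the lowest at -0.50 in PSC4 and 0.55 in KPC4.

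The lines also differed in their starting levels. With both tables on one scale, the 3 PSC4 Control-SU libraries lay above the 3 KPC4 Control-PSC-SU libraries for 37 members (29.1% of all genes), below for 1 (28.1% of all genes) and overlapped for 7. The median PSC4 to KPC4 ratio of control means was 2.85 against 1.03 over all genes, and Mcm6 had the highest at 5.46. The exception was E2f2, which was 2.70-fold higher in KPC4. These groups differ in line, in medium and in step of the transfer, which cannot be told apart.

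Another 48 genes of replication and S phase, from a list of known factors that are not among the 45, were tested in the same fits. In PSC4 31 of them rose and 2 fell, Pold4 and Rbl1, against 24.3% of all genes higher and 22.0% lower. Their median log2 change was 0.84. The 5 with the smallest p all rose: Rrm2, the regulated subunit of ribonucleotide reductase, from 55.2 ± 11.7 to 434 ± 29.1 CPM (SD, n = 3), Ccne1 and Ccne2, the cyclins E that drive S phase entry (log2 2.60 and 2.39), Orc2 (1.84) and the phosphatase Cdc25a (1.88), with adjusted p between 4.04e-05 and 0.000101 in edgeR. In KPC4 0 of the 48 passed without the block (0% of all genes), and 24 were higher at an unadjusted p under 0.05 (10.9% of all genes). DESeq2 called 15 (6.22% of all genes), and 25 rose in edgeR with the block (6.07% of all genes). The median log2 change was 0.85 without the block. The 5 with the smallest p were Recql4, Timeless, Slbp, Dbf4 and Ticrr, with log2 changes between 1.50 and 2.21 and adjusted p between 0.000755 and 0.00423 with the block. Recql4 and Ticrr act in origin firing, Dbf4 activates the Cdc7 kinase, Timeless protects the fork, and Slbp binds histone messenger RNA.

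By role, 10 of 13 further licensing and firing genes, 4 of 5 genes of nucleotide and histone supply and 7 of 8 S phase regulators rose in PSC4. Over all genes 24.3% rose there. Of 15 further polymerase and fork subunits 5 (33.3%) rose in PSC4, against 24.3% of all genes, and 1 fell, against 22.0%. In either direction 40% of the 15 were called, against 46.3% of all genes. The median log2 change of these subunits was 0.24 in PSC4 and 0.31 in KPC4. The 5 were Pole4, Wdhd1, Timeless, Tipin and Chtf18, and the 1 that fell was Pold4. In KPC4 with the block Wdhd1, Timeless, Tipin, Chtf18 and Dscc1 rose, 33.3% of the 15 against 6.07% of all genes higher. The other 8, which were Pold2, Pold3, Pole3, Rpa3, Dna2, Rnaseh2a, Rnaseh2b and Rnaseh2c, were called in neither line in these fits. Of all genes tested in both lines, 51.0% were called in neither.

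Mitosis genes, which peak after S phase, were counted for comparison. In PSC4 10 of 18 rose and 1 fell (Ccnb2), against 24.3% of all genes higher and 22.0% lower. Their median log2 change was 0.59. In KPC4 the median was 1.50, and 0 passed (0% of all genes). At an unadjusted p under 0.05, 16 were higher (10.9% of all genes), and 14 rose with the block (6.07% of all genes). Mki67, a marker of cycling cells, rose in PSC4 from 725 ± 305 to 2035 ± 746 CPM (SD, n = 3; edgeR, adjusted p = 0.0123) and was higher in KPC4 at 1228 ± 578 against 297 ± 186 CPM (edgeR, adjusted p = 0.124, and 0.000529 with the block). Top2a, Cdk1 and Foxm1 had log2 changes of 0.000087, 0.09 and 0.03 in PSC4, none of which passed, and of 0.89, 0.74 and 1.37 in KPC4, of which Foxm1 passed with the block (adjusted p = 0.0056).

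In the authors' deposited table for PSC4, 31 of the 45 members had an adjusted p under 0.05, 30 higher and 1 lower. The authors' deposited table for KPC4 had 18, all higher. The share of all genes under the threshold was not counted in these 2 tables. For comparison, DESeq2 without the block called 51.1% of genes in PSC4 and 6.22% in KPC4 here. The sign matched the unblocked edgeR fit for 44 members in PSC4 and 45 in KPC4, and the exception was Mcm4, at -0.02 in the authors' deposited table and 0.01 here.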

How the data were processed

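Total RNA of 12 cultures was sequenced. The authors deposited whole-number counts per gene and library, 1 table per line, per the file headers. The submitters' processing notes name FastQC, Trim Galore 0.6.10, cutadapt 5.2, Salmon, R 4.5.1, DESeq2 and build GRCm39, with no roles. Salmon gives estimates, so the counts may have been rounded, and the sharing of reads between similar genes is not given in the sources used here. Per gene symbol the authors deposited their own log2 fold change and p-value, raw and adjusted, cited only as theirs. There were 0 unused sample columns.

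Symbols came from GENCODE M21. Each line was fitted with edgeR 4.0.16 in R 4.3.3 (filterByExpr, TMM, robust quasi-likelihood test, Benjamini-Hochberg over all genes, threshold 0.05). The change in PSC4 minus that in KPC4 was fitted as an interaction over 12 libraries. CPM is scaled by TMM. The tests were tried on simulated counts. At these depths counting error was small beside the replicate spread. Replicates within a group differed far beyond counting noise (chi-square over its degrees of freedom 32.0 or more). Same-numbered KPC4 libraries deviated together from their group means (correlations 0.351, 0.436 and 0.211), so the number was taken to pair them, on the values alone. In PSC4 the correlations were 0.428, -0.0548 and 0.102, and the numbers were not taken to pair. The members, the other lists and the tests were chosen with earlier results of these data known. Values in every library are given for the 6 largest rises in each line and the 6 largest falls in PSC4 (KPC4 had none). They are also given for the smallest p of each role and the 3 smallest interaction p in each direction. The 5 smallest p of the other replication genes in each line and Mki67, Top2a, Cdk1 and Foxm1 are named without values in every library. As alternatives, the scaling was changed to that of DESeq2 1.42.0, the filter was dropped or set to 10 counts in each library, robust estimation was switched off, the replicate block was added, DESeq2 was run with and without that block, all 12 libraries were fitted together, and each library was left out. That one fit with the replicate block was chosen after seeing the data.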

Additional observations from a re-analysis of the deposited data

Results flagged for a closer look

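Pold1 was the one member whose change differed between PSC4 and KPC4 without the replicate block. That is 1 of 45 members, a smaller share than the 9.85% of 13632 genes called (5.10% lower). Line, medium and step of the transfer cannot be told apart in this contrast. Its change in PSC4 minus that in KPC4 was -1.10 on the log2 scale (SE 0.30; edgeR, interaction, adjusted p = 0.0346), with a fall in PSC4 and a higher mean in KPC4 that missed the threshold there. With the block the value was -1.15 (SE 0.25; adjusted p = 0.00731). Leaving out 1 library at a time moved it between -1.42 and -0.94, and it passed in 5 of these 12 fits. The call was lost without Control-SU replicate 1 or 3 or Gem-SU replicate 2 or 3 of PSC4, and without Control-PSC-SU replicate 1 or 3 or Gem-PSC-SU replicate 3 of KPC4 (highest adjusted p 0.0894). The cause was not tested.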

How the results depend on the processing

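In PSC4 the count of members called stayed within 1.5 times of 31 in the settings run, from 21 in one fit of all 12 libraries (46.7% of members against 40.1% of genes) to 34 in DESeq2 with the block (54.9% of genes), and leaving out 1 library gave 24 to 31 (29.8% to 49.9% of genes), with a median log2 change of 0.65 to 0.86 (other replication genes 29 to 35 called). In KPC4 no member changed direction in 15 settings, but the count of calls depended on the test: 39 with the replicate block, 23 in DESeq2, 44 in DESeq2 with the block (16.8% of genes), 19 in one fit of 12 libraries (4.47%), 44 in that fit with the block (13.4%), and 0 to 19 with 1 library left out (median 0.88 to 1.62). For the other replication genes these counts were 25, 15, 30, 14, 29 and 0 to 12. For the interaction they were 15 with the block, 19 in DESeq2 with the block (3480 of 13367 genes) and 0 to 10 with 1 library left out (4.41% to 14.5% of genes).

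With the replicate block in PSC4, where the numbers were not taken to pair, 33 members were called (54.4% of genes), Pcna (adjusted p = 0.0257) and Tk1 (0.0476) being added. The changes that turned were uncalled and near 0 in PSC4. With 1 library left out, Mcm2 ranged from -0.17 to 0.036, Mcm4 from -0.082 to 0.067, Mcm6 from -0.14 to 0.0058, Gins2 from -0.44 to 0.057, Rfc2 from -0.21 to 0.0082 and Rpa1 from -0.014 to 0.27 on the log2 scale. In one fit of 12 libraries Mcm4 was at -0.0338, and at -0.0335 with the replicate block. The causes were not tested. A group with 1 library left out kept 2, and its spread was pooled with the other groups. Replicates differed far beyond counting noise in both lines.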
